A study of Mus musculus with 27 samples.

Results

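The transcripts of 10 secreted growth factors that act on blood vessels were followed in mouse macrophages. They were Vegfa and Vegfb of the vascular endothelial growth factor (VEGF) family, Pdgfa, Pdgfb and Pdgfc of the platelet-derived growth factor (PDGF) family, Ang (angiogenin), Osm (oncostatin M), Hbegf (heparin-binding EGF-like growth factor), Igf1 (insulin-like growth factor 1) and Tgfb1 (transforming growth factor β1). They were chosen by gene symbol from a table of 50559 genes, and all 10 passed the filter on low counts that left 13614 genes to test. The study asked how a medium conditioned by malignant peripheral nerve sheath tumor cells (MPNST-CM) changes macrophages with or without TRAP1, a mitochondrial chaperone of the HSP90 family. By their labels, all macrophages came from the bone marrow of female C57BL/6 mice aged 3 to 4 months, WT or TRAP1 KO. They were differentiated for 4 and then 3 further days in medium with L929-conditioned medium as a source of M-CSF. Unpolarized cells are called Mφ here (M0 in the labels), and M2 cells had additionally received 10 ng/ml of IL-4 for 24 h. Both kinds then spent 48 h either in control medium (DMEM) or in MPNST-CM. Cell type, medium and genotype thus define 8 groups, each with 3 libraries of 3′ RNA-seq in batch 1, the 24 libraries on which all values in this account rest. The labels name no separate animals or cultures for the replicates, so the p-values measure the spread between these libraries only, which may be technical.

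As background, VEGF-A acts through receptor tyrosine kinases on endothelial cells and drives vessel sprouting, and its gene is a classical target of hypoxia-inducible factors. PDGF chains act mainly on mesenchymal and mural cells, while oncostatin M, HB-EGF, IGF-1 and TGF-β1 reach vessels through gp130, EGF, IGF and TGF-β receptors. Macrophages are a known source of several of these factors in tumors and in healing wounds, and IGF-1 is a well-known product of macrophages treated with IL-4.

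The gene counts of a batch 1 library summed to 7037684 at the lowest and 9089792 at the highest (median 7872887). Fewer than 3 counts were read as the detection floor, which covers counting error only. Levels are given as CPM (reads of a gene relative to the total of its library) after TMM scaling, and since the reads come from transcript ends, they are compared between groups and not between genes. Trap1, the targeted gene, had 10.4 to 18.8 CPM in the 12 WT libraries and no count in the 12 TRAP1 KO libraries. Xist, the transcript of the inactive X chromosome in females, had at least 254 CPM in the 12 WT libraries of batch 1 and at most 1.14 CPM in the 12 TRAP1 KO libraries of batch 1. These KO levels do not match the label female, and in batch 1 whatever sets Xist apart and the genotype cannot be told apart in any comparison of KO with WT. Both batch 2 libraries labelled TRAP1 KO had Xist, at 308 and 404 CPM (scaling of all 27 libraries), with 0 and 2 counts of Trap1. All 8 macrophage markers were detected (summed level 5245 to 7679 CPM), none of 4 lymphoid markers reached 3 counts in any library, and fibroblast or tumor markers summed to at most 4.80 CPM, with Col3a1 and Sox10 under 3 counts everywhere. Of 4 dendritic cell markers all were detected (3.69 to 12.8 CPM), and of 7 neutrophil markers 6, with Camp under 3 counts. In control medium the neutrophil markers summed to 6.50 to 9.64 CPM in WT Mφ, 1.88 to 2.24 CPM in TRAP1 KO Mφ, 16.005 to 20.131 CPM in WT M2 and 10.4 to 13.1 CPM in TRAP1 KO M2, and their part in the ligand differences was not tested. In control medium, 4 of 5 IL-4 response markers were higher and 0 lower in WT M2 than WT Mφ (edgeR adjusted p under 0.05). In TRAP1 KO, 3 were higher and 2 lower. Shares of all genes were 19.1% and 18.1% in WT and 15.6% and 12.9% in TRAP1 KO. Retnla had a mean of 1673 CPM in WT M2 and 1896 CPM in TRAP1 KO M2, and Chil3 286 and 289 CPM. Arg1 had a mean of 92.0 CPM in WT M2 and 4.89 CPM in TRAP1 KO M2. Mrc1 went from 733 CPM in Mφ to 753 CPM in M2 in WT, and from 723 to 558 CPM in TRAP1 KO. Clec10a went from 45.3 CPM in Mφ to 76.7 CPM in M2 in WT, and from 145 to 35.7 CPM in TRAP1 KO. The 3 libraries of batch 2 were left out of the main values: the library labelled M2 CM KO replicate 4 correlated better with WT M2 in control medium (Spearman's rho 0.984 across genes) than with its own group (0.949), and the library labelled M2 DMEM KO replicate 4 better with TRAP1 KO Mφ in MPNST-CM (0.970) than with its own group (0.914). The 24 libraries of batch 1 were each closest to their own group. In bulk RNA, fewer cells of a kind and less RNA per cell cannot be told apart.

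**Figure D1:**
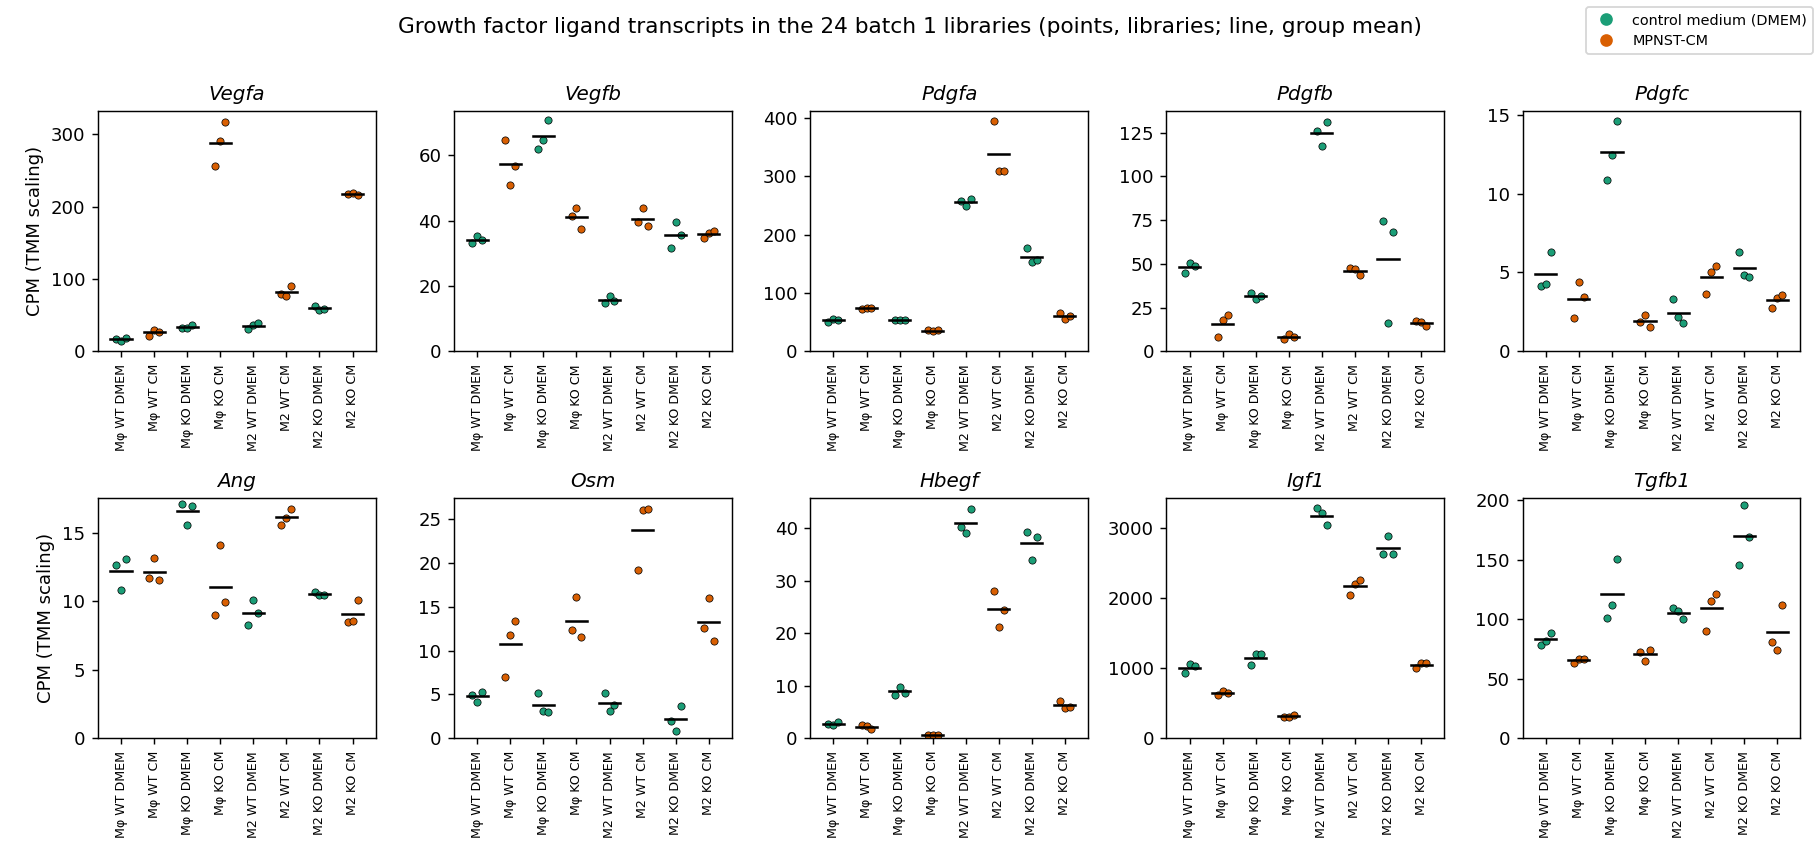
CPM (TMM scaling, y axis starting at 0) of the 10 ligands in the 24 batch 1 libraries, by group on the x axis. Each point is a library, green for control medium and orange for MPNST-CM, and the line is the group mean of 3 libraries. Vegfa stood highest in the TRAP1 KO groups in MPNST-CM, at group means of 288 CPM in Mφ and 217 CPM in M2, while Pdgfa stood highest in WT M2 cells in MPNST-CM at 337 CPM and Igf1 and Hbegf in M2 cells in control medium.

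The response to MPNST-CM differed in direction between the genotypes for several ligands, and Vegfa rose in every setting. In WT Mφ, 4 of the 10 ligands were higher and 2 lower in MPNST-CM than in control medium, against 11.3% and 9.96% of all genes tested (called at 0.05 after Benjamini-Hochberg adjustment of the edgeR quasi-likelihood p over all 13614 genes, as for every count that follows). The median log2 fold change of the 10 was -0.17, against -0.02 over all genes. In TRAP1 KO Mφ, 2 were higher and 8 lower, against 14.8% and 18.1% of all genes, with a median of -0.73 against -0.04. WT M2 cells had 6 higher and 3 lower, against 11.2% and 13.3% of all genes, with a median of 0.61 against -0.03. TRAP1 KO M2 cells had 2 higher and 6 lower, against 16.7% and 20.2%, with a median of -0.81 against -0.01. The 2 ligands higher in TRAP1 KO cells of both kinds were Vegfa and Osm.

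**Figure D2:**
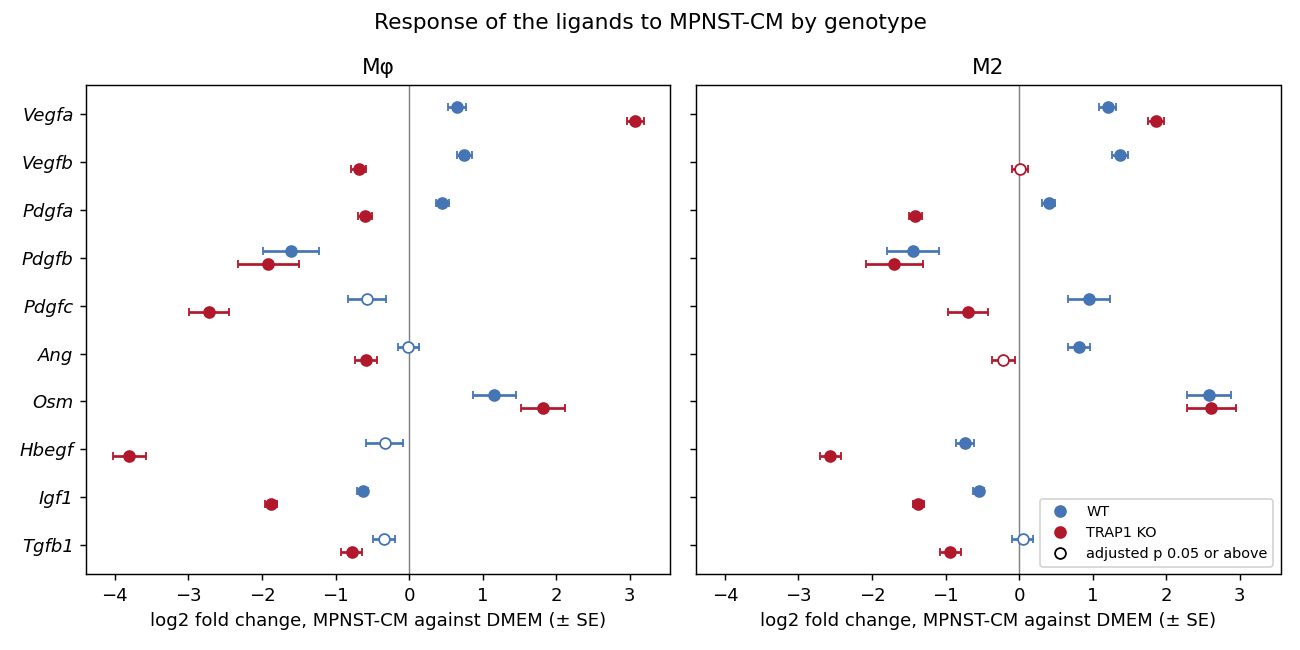
Log2 fold change of each ligand in MPNST-CM against control medium (x axis, ± SE derived from the edgeR test) in Mφ (left) and M2 cells (right), blue for WT and red for TRAP1 KO. Filled points passed an adjusted p of 0.05. Vegfa and Osm lie to the right of 0 in both genotypes, and Pdgfa lies to the right in WT and to the left in TRAP1 KO.

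The test of the genotype by medium interaction asked whether the response to MPNST-CM itself differed between TRAP1 KO and WT. In Mφ, the response was more positive in TRAP1 KO for 1 ligand and more negative for 5, against 8.17% and 11.5% of all genes. In M2 cells the numbers were 1 and 7, against 9.36% and 10.8%. The one ligand with a more positive response in TRAP1 KO was Vegfa in both cell types. Pdgfa, Vegfb, Pdgfc, Hbegf and Igf1 had a more negative response in TRAP1 KO in both, and Ang and Tgfb1 passed this test in M2 cells alone, where the difference between Mφ and M2 was not tested. Osm and Pdgfb passed it in neither, with interaction terms of 0.66 ± 0.42 and -0.30 ± 0.57 (log2, ± SE) in Mφ and 0.03 ± 0.42 and -0.26 ± 0.52 in M2.

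Vegfa encodes the main growth factor for vessel sprouting. In control medium, the 3 WT Mφ libraries had 16.7, 14.98 and 18.7 CPM and the 3 TRAP1 KO Mφ libraries 32.8, 32.5 and 37.1 CPM. In MPNST-CM, WT Mφ had 21.8, 30.2 and 27.4 CPM and TRAP1 KO Mφ 256, 290 and 317 CPM. These 4 groups did not overlap, and the TRAP1 KO libraries in MPNST-CM lay far above the rest. M2 cells in control medium had 31.2, 36.01 and 39.5 CPM in WT and 63.2, 57.7 and 58.9 CPM in TRAP1 KO. In MPNST-CM, M2 cells had 78.9, 77.0 and 89.7 CPM in WT and 217, 219 and 216 CPM in TRAP1 KO, again without overlap between groups. The rise in MPNST-CM was 1.57-fold in WT Mφ (log2 0.65 ± 0.12, SE; edgeR adjusted p = 0.000271) and 8.44-fold in TRAP1 KO Mφ (log2 3.08 ± 0.11; edgeR adjusted p = 1.75e-17). In M2 cells it was 2.30-fold in WT and 3.62-fold in TRAP1 KO (edgeR adjusted p = 4.21e-09 and 1.67e-13). The interaction was 2.42 ± 0.16 in Mφ and 0.65 ± 0.15 in M2 on the log2 scale (edgeR adjusted p = 1.94e-11 and 0.00281). TRAP1 KO cells had more Vegfa than WT cells in each of the 4 settings, from 1.68-fold in M2 cells in control medium to 10.9-fold in Mφ in MPNST-CM. With the batch 2 libraries kept in their labelled groups, the calls in TRAP1 KO Mφ in MPNST-CM remained, against control medium (log2 3.12; edgeR adjusted p = 0.00643) and against WT (3.42; edgeR adjusted p = 0.00273). That of TRAP1 KO against WT in M2 cells in control medium also passed (2.51; edgeR adjusted p = 0.0344), though not with batch as a covariate (1.65; edgeR adjusted p = 0.172). In batch 1 this last difference was 0.75 ± 0.11. The added library of that TRAP1 KO group, replicate 4, had 629 CPM of Vegfa, and its other libraries 56.5 to 62.1 CPM (scaling of all 27 libraries). The other calls on medium and genotype and both interactions were lost, and the change in TRAP1 KO M2 cells became -0.25 (edgeR adjusted p = 0.849). Among M2 and Mφ in TRAP1 KO in MPNST-CM, M2 cells were lower by a log2 fold change of -0.41 ± 0.10 (edgeR adjusted p = 0.00871), and this call was lost without Mφ CM KO replicate 3 (-0.33, edgeR adjusted p = 0.075).

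The 250 bases before the transcription start of both VEGF genes are shown because these genes moved in opposite directions in TRAP1 KO Mφ in MPNST-CM. They come from RefSeq windows on GRCm38.p6, which hold windows for 7 of the 10 ligands, and Pdgfb, Osm and Hbegf have none there. Vegfa lies at chr17:46032378-46032627 and Vegfb at chr19:6987652-6987901, both on the minus strand and written 5′ to 3′ in the direction of transcription. Capitals mark GGGCGG, the GC box bound by Sp1-type factors, on either strand, where neighboring matches run together.
Vegfa: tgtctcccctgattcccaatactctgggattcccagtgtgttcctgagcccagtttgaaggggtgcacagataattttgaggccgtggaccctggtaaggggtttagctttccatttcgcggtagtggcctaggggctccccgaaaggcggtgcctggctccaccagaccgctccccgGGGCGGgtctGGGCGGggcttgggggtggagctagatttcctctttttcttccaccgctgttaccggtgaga
Vegfb: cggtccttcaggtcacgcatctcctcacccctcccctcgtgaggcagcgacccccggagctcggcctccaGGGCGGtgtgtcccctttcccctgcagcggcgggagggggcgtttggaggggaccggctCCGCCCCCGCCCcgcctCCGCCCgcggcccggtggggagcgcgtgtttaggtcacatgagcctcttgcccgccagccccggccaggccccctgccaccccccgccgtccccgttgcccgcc
The Vegfa stretch held 2 matches of GGGCGG and the Vegfb stretch 4, and 32.7% of all 32851 windows of the same length held at least 1. ACGTG and GCGTG, searched on both strands as the core letters of hypoxia response elements, were in 38.6% of all windows. Neither was in this Vegfa stretch, GCGTG was in the Vegfb stretch with 2 matches, and sequence farther from the start was not searched. A second RefSeq start of Vegfa, whose window overlaps an annotated exon and is not printed, held 1 match of each. The palindrome of STAT6-type factors, TTC and GAA with 4 bases of any kind between them, was in 5.85% of all windows and in none of the 9 windows of these ligands.

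Vegfb, a VEGF family member that binds the receptor encoded by Flt1, had a different pattern. WT Mφ had 33.1, 35.4 and 33.9 CPM in control medium and 64.6, 50.9 and 56.8 CPM in MPNST-CM. TRAP1 KO Mφ had 62.0, 64.7 and 70.9 CPM in control medium and 41.6, 44.03 and 37.4 CPM in MPNST-CM. The libraries thus went up in WT and down in TRAP1 KO, with no overlap between the media in either genotype. The log2 fold change was 0.75 ± 0.10 in WT Mφ and -0.68 ± 0.10 in TRAP1 KO Mφ, with an interaction of -1.43 ± 0.14 (edgeR adjusted p = 2.25e-08). M2 cells in control medium had 14.7, 16.97 and 15.3 CPM in WT, the lowest group, and 31.7, 39.5 and 35.6 CPM in TRAP1 KO. In MPNST-CM they had 39.7, 43.8 and 38.2 CPM in WT and 34.8, 36.4 and 36.7 CPM in TRAP1 KO. WT M2 cells rose 2.59-fold in MPNST-CM, and in TRAP1 KO M2 cells the fold was 1.01 (log2 0.01 ± 0.10; edgeR adjusted p = 0.939), with overlapping groups. The interaction in M2 was -1.36 ± 0.15 (edgeR adjusted p = 1.82e-07).

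Pdgfa encodes the A chain of PDGF. In control medium, WT Mφ had 51.03, 56.0 and 54.3 CPM and WT M2 cells 257, 248 and 261 CPM. TRAP1 KO cells in control medium had 53.8, 53.8 and 54.3 CPM as Mφ and 178, 153 and 157 CPM as M2. M2 exceeded Mφ by 4.75-fold in WT and 3.01-fold in TRAP1 KO in control medium. In MPNST-CM, WT cells had 71.9, 73.6 and 75.0 CPM as Mφ and 394, 309 and 309 CPM as M2, both above control medium without overlap. TRAP1 KO cells in MPNST-CM had 36.1, 34.7 and 36.04 CPM as Mφ and 66.5, 56.0 and 60.5 CPM as M2, both below control medium without overlap. The log2 fold change in MPNST-CM was 0.45 ± 0.09 in WT Mφ, 0.40 ± 0.09 in WT M2, -0.60 ± 0.09 in Mφ lacking TRAP1 and -1.41 ± 0.09 in M2 cells lacking TRAP1 (edgeR adjusted p between 1.02e-12 and 0.000927). The interaction was -1.05 ± 0.13 in Mφ and -1.81 ± 0.13 in M2 (edgeR adjusted p = 7.97e-07 and 3.45e-11). In MPNST-CM, TRAP1 KO M2 cells had 0.181 of the WT level of Pdgfa (log2 -2.47 ± 0.09; edgeR adjusted p = 5.31e-17).

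Pdgfb encodes the B chain, the ligand known for pericyte recruitment. It was lower in MPNST-CM in all 4 settings, with log2 fold changes between -1.91 and -1.44 (edgeR adjusted p between 0.00159 and 0.00569). WT Mφ had 44.8, 50.8 and 48.6 CPM in control medium and 8.22, 17.9 and 21.02 CPM in MPNST-CM, and TRAP1 KO Mφ had 33.3, 29.97 and 31.6 CPM and then 6.99, 9.73 and 8.41 CPM. WT M2 cells had the highest levels, 126, 118 and 131 CPM in control medium, and 47.8, 47.3 and 43.4 CPM in MPNST-CM. TRAP1 KO M2 cells had 74.3, 16.1 and 68.3 CPM in control medium and 17.2, 16.9 and 14.6 CPM in MPNST-CM. Replicate 2 of TRAP1 KO M2 in control medium, at 16.1 CPM, thus lay among the libraries in MPNST-CM, and its group is the only one in which the media overlapped for Pdgfb. Without that library, M2 exceeded Mφ in TRAP1 KO in control medium by a log2 of 1.18 (edgeR adjusted p = 7.57e-05), against 0.74 ± 0.37 with it (edgeR adjusted p = 0.152). TRAP1 KO M2 cells were below WT M2 cells in control medium (log2 -1.24 ± 0.35; edgeR adjusted p = 0.0213), a call lost without WT M2 DMEM replicate 2 (-1.25, edgeR adjusted p = 0.0534) or replicate 4 (-1.22, edgeR adjusted p = 0.0601). Fitted on the compared groups alone, neither this difference nor the fall of TRAP1 KO M2 cells in MPNST-CM passed (edgeR adjusted p = 0.229 and 0.123). TRAP1 KO M2 cells were also below WT M2 cells in MPNST-CM (log2 -1.51 ± 0.38; edgeR adjusted p = 0.00538). In Mφ, the difference in MPNST-CM was -0.91 ± 0.43 (edgeR adjusted p = 0.112), and without WT Mφ CM replicate 1 it was -1.22 (edgeR adjusted p = 0.041). In control medium it was -0.60 ± 0.36 (edgeR adjusted p = 0.323) without overlap of the libraries, and a fit of the compared groups alone called it lower (-0.65; edgeR adjusted p = 0.000869).

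Pdgfc, a PDGF that is activated by cleavage outside the cell, was measured at low counts, between 12 and 111 reads per library. TRAP1 KO Mφ in control medium had the highest levels, 10.9, 12.4 and 14.6 CPM, against 4.17, 4.30 and 6.27 CPM in WT. In MPNST-CM, TRAP1 KO Mφ had 1.87, 2.31 and 1.53 CPM and WT Mφ 2.08, 4.38 and 3.45 CPM. TRAP1 KO Mφ therefore fell from the highest to the lowest of the 8 groups, with a log2 fold change of -2.72 ± 0.27 (edgeR adjusted p = 5.16e-09). M2 cells in control medium had 3.31, 2.20 and 1.83 CPM in WT and 6.30, 4.82 and 4.69 CPM in TRAP1 KO. In MPNST-CM they had 3.65, 5.00 and 5.41 CPM in WT and 2.78, 3.39 and 3.54 CPM in TRAP1 KO. The interaction was -2.14 ± 0.38 in Mφ and -1.64 ± 0.39 in M2 (edgeR adjusted p = 0.000125 and 0.00317). Several calls did not survive the loss of a library: the fall in TRAP1 KO M2 cells (log2 -0.69 ± 0.27; edgeR adjusted p = 0.0439) was lost without any one of its 6 libraries (edgeR adjusted p between 0.0598 and 0.201), and the rise in WT M2 cells (0.94 ± 0.28; edgeR adjusted p = 0.0151) without WT M2 DMEM replicate 3 or 4 or WT M2 CM replicate 3 (edgeR adjusted p between 0.0562 and 0.0769). The lower level in TRAP1 KO Mφ than in WT Mφ in MPNST-CM (-0.79 ± 0.30; edgeR adjusted p = 0.0381) was lost without WT Mφ CM replicate 2 or 3 or TRAP1 KO Mφ CM replicate 1 or 3 (edgeR adjusted p between 0.0818 and 0.211). The higher level in TRAP1 KO M2 cells in control medium (1.11 ± 0.28; edgeR adjusted p = 0.00726) was lost without TRAP1 KO M2 DMEM replicate 1 (0.94, edgeR adjusted p = 0.0522) or WT M2 DMEM replicate 4 (0.93, edgeR adjusted p = 0.0626).

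Ang encodes angiogenin, a secreted ribonuclease with angiogenic activity, and varied least, by 1.83-fold between the highest and the lowest group mean. TRAP1 KO Mφ in control medium had 17.1, 15.6 and 16.96 CPM and WT Mφ 12.6, 10.8 and 13.1 CPM. In MPNST-CM, WT Mφ had 11.7, 13.1 and 11.5 CPM and TRAP1 KO Mφ 8.99, 14.1 and 9.93 CPM. M2 cells in control medium had 8.26, 10.1 and 9.13 CPM in WT and 10.7, 10.4 and 10.5 CPM in TRAP1 KO. In MPNST-CM, WT M2 cells stood clearly above, at 15.6, 16.1 and 16.7 CPM, and TRAP1 KO M2 cells had 8.47, 8.59 and 10.1 CPM. Ang rose 1.76-fold in WT M2 cells in MPNST-CM (log2 0.81 ± 0.15; edgeR adjusted p = 0.000176), the change in TRAP1 KO M2 cells was -0.22 ± 0.16 (edgeR adjusted p = 0.303), and the interaction was -1.03 ± 0.22 (edgeR adjusted p = 0.000944). In Mφ the interaction was -0.58 ± 0.21 (edgeR adjusted p = 0.0516), and without TRAP1 KO Mφ CM replicate 2 it was -0.80 (edgeR adjusted p = 0.00498). The higher level in TRAP1 KO Mφ in control medium (0.44 ± 0.15; edgeR adjusted p = 0.0373) was lost without any one of its 6 libraries (edgeR adjusted p between 0.0511 and 0.169). Rnase4, a ribonuclease gene whose transcripts share their start with those of Ang, was looked up beside Ang2, Ang4, Ang5 and Ang6. Of these only Rnase4 was tested, with Ang2 at up to 7 counts and Ang4, Ang5 and Ang6 at up to 1. Rnase4 rose in WT M2 cells in MPNST-CM as well (log2 0.45 ± 0.07; edgeR adjusted p = 1.9e-05), and in TRAP1 KO M2 cells it rose too (0.46 ± 0.07; edgeR adjusted p = 9.94e-06), with an interaction of 0.00 ± 0.10 (edgeR adjusted p = 0.998). How reads shared by these overlapping genes were assigned is not stated, so their levels are uncertain to that extent.

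Osm encodes oncostatin M, a cytokine of the IL-6 family. In control medium it was near the lower end of what these libraries could measure, with 4.91, 4.17 and 5.24 CPM in WT Mφ, 5.13, 3.14 and 3.02 CPM in TRAP1 KO Mφ, 5.11, 3.11 and 3.79 CPM in WT M2 and 1.95, 0.803 and 3.72 CPM in TRAP1 KO M2. In MPNST-CM it reached 6.95, 11.8 and 13.4 CPM in WT Mφ, 12.4, 16.1 and 11.6 CPM in TRAP1 KO Mφ, 19.2, 26.0 and 26.2 CPM in WT M2 and 12.6, 15.9 and 11.1 CPM in TRAP1 KO M2. Every group in MPNST-CM lay above its counterpart in control medium without overlap. The log2 fold changes in Mφ were 1.16 ± 0.29 (WT) and 1.82 ± 0.30 (TRAP1 KO), and those in M2 cells 2.58 ± 0.30 (WT) and 2.61 ± 0.33 (TRAP1 KO) (edgeR adjusted p between 2.89e-07 and 0.00565). In MPNST-CM, TRAP1 KO M2 cells had 0.557 of the WT level (log2 -0.85 ± 0.26; edgeR adjusted p = 0.0124), a call lost without TRAP1 KO M2 CM replicate 3 (-0.74, edgeR adjusted p = 0.0625). In control medium the same comparison gave -0.88 ± 0.38 (edgeR adjusted p = 0.125), and without TRAP1 KO M2 DMEM replicate 3 it was -1.57 (edgeR adjusted p = 0.0158). M2 against Mφ in TRAP1 KO in control medium gave -0.81 ± 0.38 (edgeR adjusted p = 0.124), and without that library -1.46 (edgeR adjusted p = 0.0125).

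Hbegf encodes a membrane-anchored ligand of the EGF receptor family that is shed by proteases, and it had the widest range, 65.8-fold between group means. Its levels were higher in M2 cells than in Mφ in every setting. In control medium, WT Mφ had 2.70, 2.48 and 3.19 CPM and WT M2 cells 40.3, 38.99 and 43.7 CPM. TRAP1 KO cells in control medium had 8.25, 9.82 and 8.68 CPM as Mφ and 39.2, 34.01 and 38.3 CPM as M2. In MPNST-CM, WT cells had 2.43, 2.42 and 1.83 CPM as Mφ and 28.0, 21.1 and 24.4 CPM as M2. TRAP1 KO cells in MPNST-CM had 0.624, 0.608 and 0.637 CPM as Mφ, at 5 reads in each library, and 7.14, 5.76 and 5.95 CPM as M2. The fall in MPNST-CM was much deeper in TRAP1 KO, with a log2 of -3.81 ± 0.22 in Mφ and -2.56 ± 0.14 in M2 (edgeR adjusted p = 1.71e-13 and 3.04e-14), than in WT, where it was -0.33 ± 0.25 in Mφ (edgeR adjusted p = 0.385) and -0.74 ± 0.12 in M2 (edgeR adjusted p = 3.8e-05). The interaction was -3.47 ± 0.32 in Mφ and -1.82 ± 0.18 in M2 (edgeR adjusted p = 4.06e-09 and 2.97e-08). Between genotypes, TRAP1 KO Mφ were higher than WT in control medium (3.17-fold) and lower in MPNST-CM (log2 -1.81 ± 0.37; edgeR adjusted p = 1.14e-05).

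Igf1 encodes a growth factor that acts on endothelial cells through the IGF-1 receptor, and it was counted with 2410 to 24777 reads per library. In control medium, WT Mφ had 937, 1056 and 1026 CPM and TRAP1 KO Mφ 1041, 1202 and 1201 CPM, with overlap. WT M2 cells had 3285, 3209 and 3038 CPM and TRAP1 KO M2 cells 2625, 2879 and 2628 CPM. In MPNST-CM, Mφ had 621, 677 and 650 CPM in WT and 301, 303 and 333 CPM in TRAP1 KO. M2 cells in MPNST-CM had 2048, 2208 and 2252 CPM in WT and 1002, 1070 and 1068 CPM in TRAP1 KO. Igf1 was therefore lower in MPNST-CM in every setting without overlap, and lowest within each cell type in TRAP1 KO. The log2 fold change in Mφ was -0.63 ± 0.07 (WT) and -1.88 ± 0.08 (TRAP1 KO), and in M2 cells -0.55 ± 0.07 (WT) and -1.37 ± 0.08 (TRAP1 KO) (edgeR adjusted p between 1.16e-16 and 2.11e-06). The interaction was -1.25 ± 0.11 in Mφ and -0.82 ± 0.10 in M2 (edgeR adjusted p = 1.05e-09 and 1.28e-06). M2 cells exceeded Mφ by 2.36-fold to 3.35-fold in all 4 settings. The small difference of TRAP1 KO M2 from WT M2 in control medium (log2 -0.23 ± 0.07; edgeR adjusted p = 0.033) was lost without TRAP1 KO M2 DMEM replicate 1 or 3 or any of the 3 WT M2 DMEM libraries (edgeR adjusted p between 0.0533 and 0.142). In Mφ it was 0.19 ± 0.07 (edgeR adjusted p = 0.0838), and without TRAP1 KO Mφ DMEM replicate 1 it was 0.25 (edgeR adjusted p = 0.0251). In the blocked fit, which pairs libraries by replicate number, it passed as well (0.19; edgeR adjusted p = 0.0233).

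Tgfb1 encodes a factor that is secreted in a latent complex and released by proteases, integrins and thrombospondin. It varied by 2.59-fold between group means, with its highest levels in TRAP1 KO cells in control medium, 101, 112 and 150 CPM as Mφ and 145, 195 and 169 CPM as M2. WT cells in control medium had 78.6, 82.1 and 88.5 CPM as Mφ and 110, 107 and 100 CPM as M2. In MPNST-CM, Mφ had 63.5, 66.6 and 66.6 CPM in WT and 72.0, 64.6 and 74.5 CPM in TRAP1 KO. M2 cells in MPNST-CM had 90.4, 115 and 121 CPM in WT and 80.6, 74.3 and 112 CPM in TRAP1 KO. Tgfb1 fell in MPNST-CM in TRAP1 KO, by 0.78 on the log2 scale in Mφ and by 0.93 in M2 (edgeR adjusted p = 0.000167 and 1.43e-05). In WT the change was -0.34 ± 0.15 in Mφ (edgeR adjusted p = 0.11, and 0.0357 in the fit blocked on replicate number) and 0.05 ± 0.15 in M2 (edgeR adjusted p = 0.874). The interaction passed in M2 (-0.98 ± 0.21; edgeR adjusted p = 0.00112). In Mφ it had the same sign and did not pass (-0.44 ± 0.21, edgeR adjusted p = 0.155), except without the filter on low counts (edgeR adjusted p = 0.0313). The higher level in TRAP1 KO Mφ in control medium (0.54 ± 0.15; edgeR adjusted p = 0.0107) was lost without TRAP1 KO Mφ DMEM replicate 3, the highest library of its group (0.35, edgeR adjusted p = 0.118), or WT Mφ DMEM replicate 1 (0.50, edgeR adjusted p = 0.0512). In MPNST-CM, TRAP1 KO M2 cells differed from WT by -0.29 ± 0.15 (edgeR adjusted p = 0.129), and the difference passed the test without WT M2 CM replicate 1 (-0.48, edgeR adjusted p = 0.0204) or TRAP1 KO M2 CM replicate 3 (-0.49, edgeR adjusted p = 0.0108). M2 cells exceeded Mφ in TRAP1 KO in control medium (0.49 ± 0.14; edgeR adjusted p = 0.012), a call lost without TRAP1 KO Mφ DMEM replicate 1 or 2 or TRAP1 KO M2 DMEM replicate 2 (edgeR adjusted p between 0.0591 and 0.0952).

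Compared between genotypes within one medium, the called ligands were all higher in TRAP1 KO in Mφ in control medium and mostly lower in TRAP1 KO in MPNST-CM. In Mφ in control medium, 6 of the 10 were higher and 0 lower in TRAP1 KO, against 8.64% and 7.97% of all genes. The 6 were Vegfa, Vegfb, Pdgfc, Ang, Hbegf and Tgfb1. At an unadjusted edgeR p of 0.05 none of the 10 was lower, and DESeq2 gave 5 higher and 0 lower, since it did not call Ang (adjusted p = 0.0687). The compared groups alone did not call Ang either (edgeR adjusted p = 0.0876) and called Pdgfb lower. In Mφ in MPNST-CM, 1 was higher (Vegfa) and 5 lower, against 19.1% and 19.2%. In M2 cells in control medium, 4 were higher and 3 lower, against 8.56% and 7.87%. In M2 cells in MPNST-CM, 1 was higher (Vegfa) and 6 lower, against 17.2% and 16.8%. The lower ligands shared by both cell types in MPNST-CM were Pdgfa, Hbegf and Igf1. Each comparison of genotypes shares its libraries with the comparisons of media, so these counts are not independent.

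Compared between M2 and Mφ, more ligands were called higher than lower in M2 cells in each of the 4 settings. In control medium, 5 were higher and 3 lower in WT, against 19.1% and 18.1% of all genes, and 5 were higher and 3 lower in TRAP1 KO, against 15.6% and 12.9%. In MPNST-CM, 8 were higher and 1 lower in WT, against 11.9% and 13%, and 3 were higher and 1 lower in TRAP1 KO, against 6.71% and 4.47%. Hbegf, Igf1 and Pdgfa were higher in M2 cells in all 4 settings, with Hbegf at 14.6-fold in WT in control medium. Vegfb was lower in M2 cells in control medium in both genotypes and in MPNST-CM in WT. Pdgfc was lower in control medium (log2 -1.02 ± 0.28 in WT and -1.26 ± 0.24 in TRAP1 KO). Vegfa was higher in M2 cells except in TRAP1 KO in MPNST-CM, where it was the one ligand lower. The differences of Ang were small, at most 0.65 on the log2 scale in size in these 4 settings, and those in WT were lost without single libraries, namely WT Mφ DMEM replicate 1 or 3 or WT M2 DMEM replicate 2 or 4 in control medium (edgeR adjusted p between 0.0841 and 0.137) and WT Mφ CM replicate 1 or 3 or WT M2 CM replicate 2 or 3 in MPNST-CM (edgeR adjusted p between 0.0791 and 0.113).

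**Figure D3:**
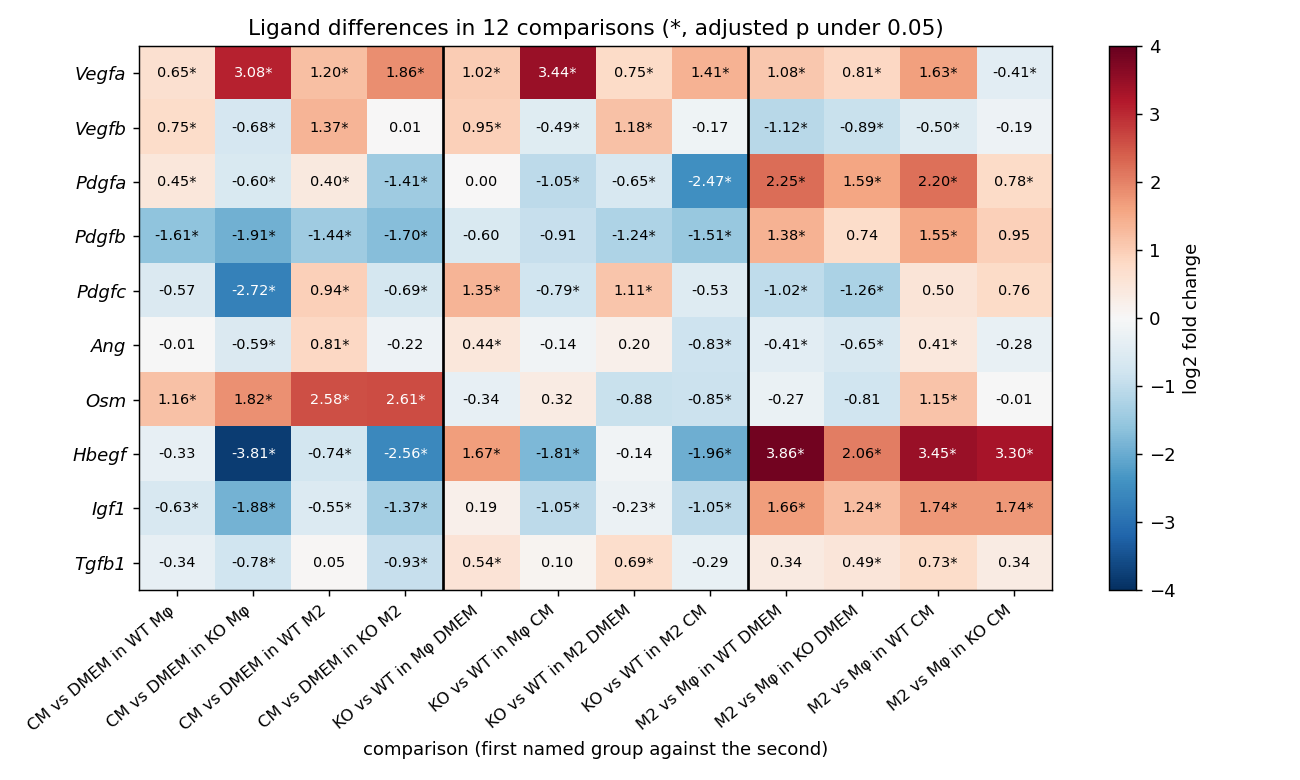
Log2 fold change of each ligand (rows) in 12 comparisons (columns), printed in each cell and colored from blue (lower in the first named group) to red (higher), with an asterisk for an adjusted p under 0.05. The row of Vegfa is positive in the 8 comparisons of media and of genotypes, and the rows of Hbegf, Igf1 and Pdgfa are positive in the 4 comparisons of M2 with Mφ on the right.

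Across the 8 group means of log2 CPM, Hbegf and Igf1 were the pair of ligands most alike (Pearson's r = 0.980, n = 8 groups), and Vegfb and Pdgfb had the lowest r (-0.641). These values describe 8 means, made from libraries that share depth scaling, and carry no test. Among 8197 other genes with a mean of at least 10 CPM, those most like Vegfa were Rabggta (r = 0.979), Atf5 (0.979), an activating transcription factor of the integrated stress response, and Mapk8ip3 (0.976). The genes most like Igf1 were Egr2 (0.989), a transcription factor induced by IL-4 in macrophages, the mitochondrially encoded ATP6 (0.986) and Flt1 (0.984). Those for Hbegf were ATP6 (0.987), Fig4 (0.978) and the mitochondrially encoded COX2 (0.974). Pdgfa was most like Creld2 (0.974), Hnrnpll (0.973) and Bcap29 (0.965), Pdgfb most like Clic4 (0.979), Otud1 (0.965) and Marchf1 (0.961), and Pdgfc most like Gmeb1 (0.962), Fnip1 (0.962) and Plxna2 (0.945). Vegfb was most like Rcbtb1 (0.957), Bhlhe41 (0.927) and Zfyve26 (0.921), Osm most like Man1a (0.966), Nufip1 (0.953) and Mrpl39 (0.951), and Tgfb1 most like Nipal3 (0.961), Gm40309 (0.957) and Mgll (0.956). Ang had the weakest matches, Tns1 (0.928), Ptms (0.885) and Man2c1 (0.883).

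Because Vegfa is a known target of hypoxia-inducible factors, it was set beside 16 genes of that pathway, of which 15 were tested. In TRAP1 KO Mφ, 10 of the 15 rose and 1 fell in MPNST-CM, with a median log2 of 1.07, against 14.8% and 18.1% of all genes, and in WT Mφ 6 rose and 2 fell, with a median of 0.30, against 11.3% and 9.96%. In M2 cells, 8 rose and 2 fell in TRAP1 KO (median 0.32), against 16.7% and 20.2% of all genes, and 1 rose and 5 fell in WT (median -0.09), against 11.2% and 13.3%. In MPNST-CM, Mφ of TRAP1 KO exceeded those of WT for 11 of the 15 genes and fell short for 0, against 19.1% and 19.2% of all genes, and M2 cells for 6 and 1, against 17.2% and 16.8%. In control medium the counts were 1 and 0 in Mφ, against 8.64% and 7.97%, and 1 and 2 in M2, against 8.56% and 7.87%. At an unadjusted edgeR p under 0.05, 1 gene was lower in TRAP1 KO Mφ in either medium, Epas1 in MPNST-CM and Pgk1 in control medium, and no other tool was run on this list. Bnip3, a mitophagy receptor, rose in Mφ of TRAP1 KO by a log2 of 1.88 ± 0.13 and in M2 cells of TRAP1 KO by 1.43 ± 0.13 (edgeR adjusted p = 3.75e-12 and 1.77e-09), and in WT the changes were 0.21 ± 0.13 and 0.15 ± 0.14 (edgeR adjusted p = 0.297 and 0.533). Egln3, which encodes an oxygen-sensing prolyl hydroxylase, rose in TRAP1 KO Mφ by 4.29 ± 0.33 from a mean of 1.00 CPM to 19.6 CPM, and in WT Mφ it rose from 0.525 to 2.37 CPM (edgeR adjusted p = 0.000585). Hif1a itself rose in all 4 settings, in Mφ by 0.59 ± 0.09 (WT) and 1.07 ± 0.09 (TRAP1 KO), and in M2 cells by 0.34 ± 0.09 (WT) and 1.14 ± 0.09 (TRAP1 KO). Ndrg1 fell in MPNST-CM in all 4 settings, most in TRAP1 KO M2 cells (-1.46 ± 0.11), where Vegfa rose. These are transcript levels, and neither HIF-1α protein nor oxygen was measured in these libraries.

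**Figure D4:**
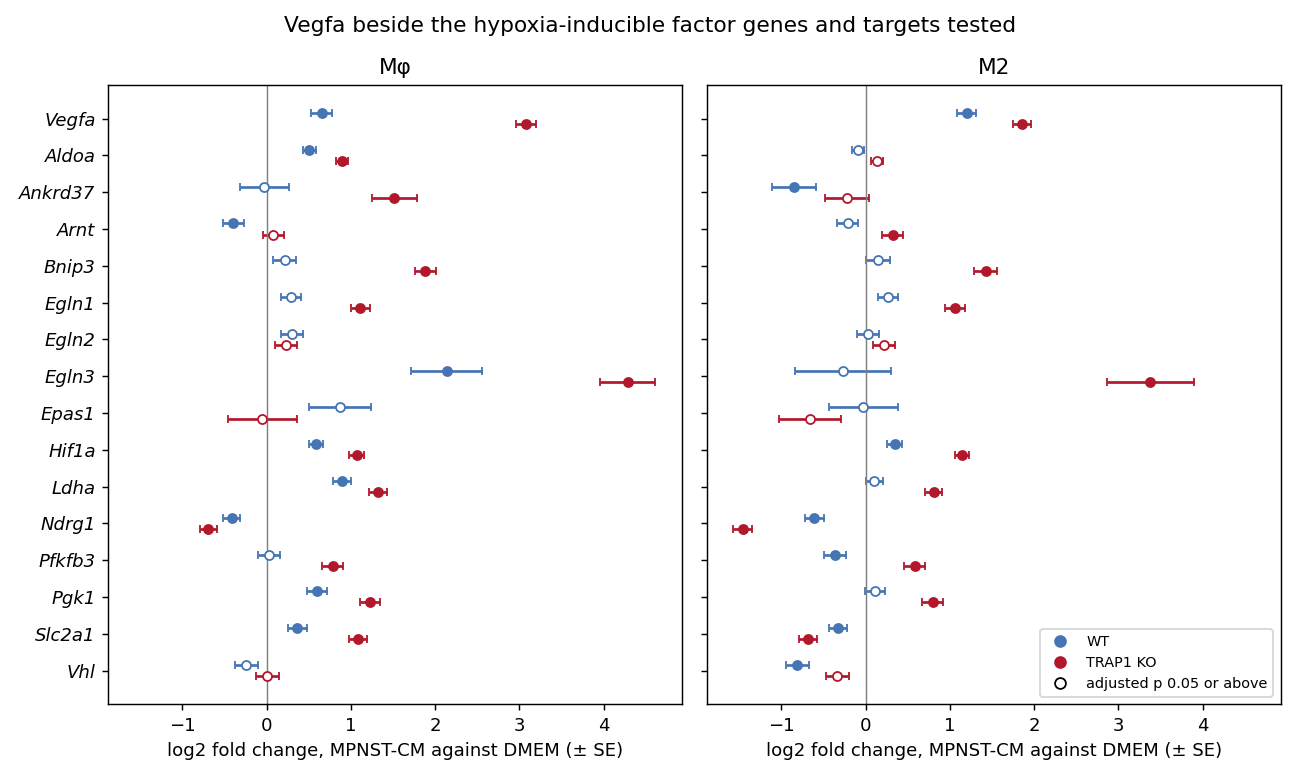
Log2 fold change in MPNST-CM against control medium (x axis, ± SE) of Vegfa and the 15 tested hypoxia-inducible factor genes and targets in Mφ (left) and M2 cells (right), blue for WT and red for TRAP1 KO, filled where the adjusted p was under 0.05. In Mφ, 10 of the 15 red points are filled to the right of 0, against 6 of the blue ones.

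The receptors for these ligands were examined in the same cells, 17 of 23 being tested. The PDGF receptor Pdgfra, with no more than 1 count in any library, and the oncostatin M receptor Osmr, with no more than 2, were below the floor, and the PDGF receptor Pdgfrb had no more than 6 counts. Flt1, the receptor for VEGF-A and VEGF-B, rose with IL-4 and fell with MPNST-CM. Its mean was 5.25 CPM in WT Mφ and 536 CPM in WT M2 cells in control medium (log2 6.68 ± 0.15; edgeR adjusted p = 5.66e-22), and 94.7 CPM in WT M2 cells in MPNST-CM. In TRAP1 KO M2 cells Flt1 was at 149 CPM in control medium and 9.74 CPM in MPNST-CM, with an interaction of -1.43 ± 0.17 (edgeR adjusted p = 4.07e-07). Kdr, the main signaling receptor of VEGF-A, went the other way and rose in MPNST-CM, from 3.05 to 23.9 CPM in WT M2 and from 4.33 to 42.9 CPM in TRAP1 KO M2 (log2 2.95 ± 0.17 and 3.30 ± 0.16; edgeR adjusted p = 5.27e-13 and 2.65e-15). Of 5 endothelial markers, which include Kdr, Tek and Emcn had no count in any library, and Cdh5 had at most 10. Vwf, also among the 5, fell in M2 cells in MPNST-CM, where Kdr rose. Its mean went from 53.2 to 14.98 CPM in WT M2 and from 59.5 to 10.6 CPM in TRAP1 KO M2. In Mφ it went from 14.3 to 11.9 CPM in WT and from 27.9 to 7.32 CPM in TRAP1 KO. The summed level of the 5 ranged from 29.97 CPM in WT Mφ in control medium to 71.7 CPM in WT Mφ in MPNST-CM. Il6st, which encodes gp130, the shared receptor chain of oncostatin M, fell in MPNST-CM in all 4 settings (log2 between -1.46 and -0.77), as Osm itself rose. Counts for the 17 receptors in MPNST-CM were 2 higher and 7 lower in WT Mφ, 2 and 10 in TRAP1 KO Mφ, 2 and 9 in WT M2 and 2 and 10 in TRAP1 KO M2. The shares of all genes were 11.3% and 9.96%, 14.8% and 18.1%, 11.2% and 13.3%, and 16.7% and 20.2% in these comparisons, so that the 2 higher receptors are near or below the background. Median log2 fold changes were -0.40, -0.39, -0.31 and -0.45, against -0.02, -0.04, -0.03 and -0.01 over all genes.

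Among 24 genes that release, activate or bind these ligands, 12 were tested. Thbs1 encodes thrombospondin 1, an activator of latent TGF-β1 and a known inhibitor of vessel growth. It rose in MPNST-CM from a mean of 16.8 to 146 CPM in WT Mφ and from 12.6 to 386 CPM in WT M2. In TRAP1 KO it rose from 16.4 to 1878 CPM in Mφ and from 12.5 to 2520 CPM in M2. The log2 fold change was 3.12 ± 0.15 in WT and 6.84 ± 0.17 in TRAP1 KO Mφ, and the interaction was 3.72 ± 0.21 in Mφ and 2.72 ± 0.22 in M2 (edgeR adjusted p = 1.82e-12 and 1.03e-09). Lrrc32, which encodes the surface anchor of latent TGF-β1 known as GARP, was high in M2 cells in control medium (117 CPM in WT, 89.2 CPM in TRAP1 KO) and fell in MPNST-CM to 57.7 CPM in WT and 10.5 CPM in TRAP1 KO. Plau, the urokinase that activates matrix-bound factors through plasmin, was at 285 CPM in WT and 82.9 CPM in TRAP1 KO M2 cells in MPNST-CM (log2 -1.78 ± 0.14; edgeR adjusted p = 3.74e-10). Adam17, the main sheddase of HB-EGF, fell in MPNST-CM in all 4 settings (log2 between -1.19 and -0.50). Igfbp4, an IGF-binding protein, rose in M2 cells in MPNST-CM in both genotypes (2.13 ± 0.09 in WT and 1.16 ± 0.09 in TRAP1 KO). In MPNST-CM, 4 of the 12 were higher and 2 lower in WT Mφ, 3 and 3 in TRAP1 KO Mφ, 2 and 4 in WT M2 and 3 and 7 in TRAP1 KO M2, with medians of -0.11, -0.15, -0.19 and -0.55. Against the shares of all genes in the same order, 11.3% and 9.96%, 14.8% and 18.1%, 11.2% and 13.3%, and 16.7% and 20.2%, several of these counts are near the background.

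**Figure D5:**
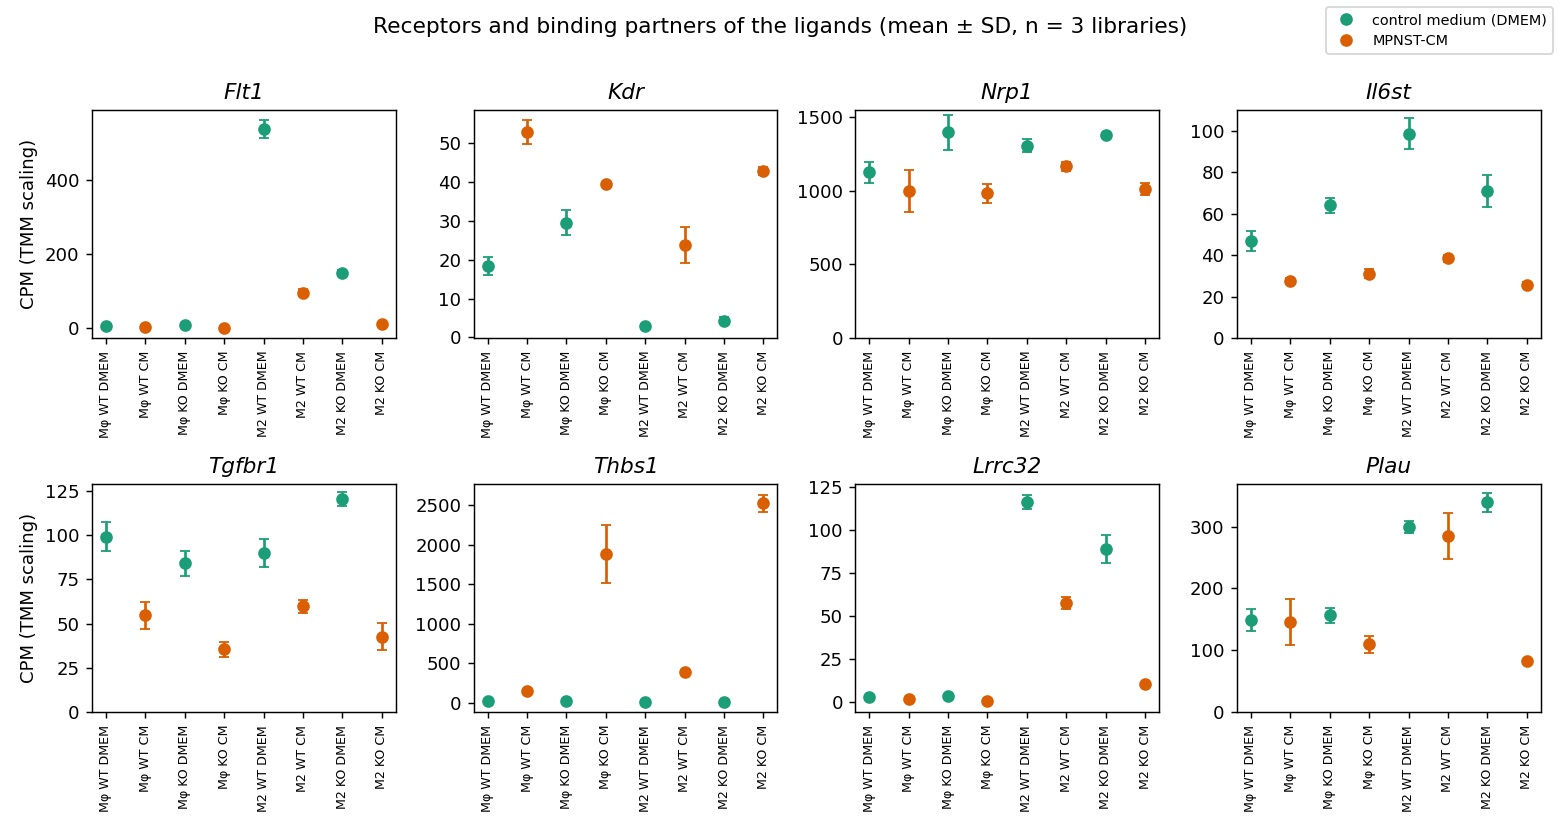
Mean CPM (TMM scaling, y axis) with SD of 3 libraries for the receptors Flt1, Kdr, Nrp1, Il6st and Tgfbr1 and the genes Thbs1, Lrrc32 and Plau, by group on the x axis, green for control medium and orange for MPNST-CM. Thbs1 reaches 1878 and 2520 CPM in the TRAP1 KO groups in MPNST-CM, and Flt1 stands at 536 CPM in WT M2 cells in control medium.

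Related ligands were mostly near the floor, and 6 of 24 were tested. Hgf, hepatocyte growth factor, had group means between 22.9 and 98.1 CPM, and it fell in MPNST-CM in Mφ by 0.73 on the log2 scale in WT and by 0.97 in TRAP1 KO (edgeR adjusted p = 6.1e-05 and 2.34e-07). In M2 cells Hgf fell by 1.23 in TRAP1 KO (edgeR adjusted p = 1.27e-09), the change in WT was -0.04 ± 0.11 (edgeR adjusted p = 0.858), and the interaction was -1.19 ± 0.16 (edgeR adjusted p = 2.59e-06). Vegfc, the lymphatic VEGF, was low, with at most 43 counts in any library. In M2 cells in control medium it had means of 4.81 CPM in WT and 0.795 CPM in TRAP1 KO. In MPNST-CM it had 1.79 CPM in WT M2 cells and no count in TRAP1 KO M2 cells. Tgfb3 was at most 0.301 CPM in the WT group means and reached a mean of 3.82 CPM in MPNST-CM-treated TRAP1 KO Mφ. In MPNST-CM, 1 of the 6 was higher and 2 lower in WT Mφ, 2 and 2 in TRAP1 KO Mφ, 2 and 1 in WT M2 and 2 and 3 in TRAP1 KO M2, against 11.3% and 9.96%, 14.8% and 18.1%, 11.2% and 13.3%, and 16.7% and 20.2% of all genes. With only 6 genes, a single call changes these counts strongly, and nothing is read from them against the shares.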

How the data were processed

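Bone marrow-derived macrophages were profiled by QuantSeq 3′ RNA-seq. The authors trimmed reads with Trimmomatic, mapped them with HISAT2, kept those with a sufficient mapping quality using SAMtools, and counted them on genes with featureCounts. They deposited these raw counts without normalization. The labels name mm39 and the paper's methods mm10, the strand setting of the counting is not stated, and no genome of the first build was used here. Of the 32 columns of the table, 5 correspond to no sample of the series and were left aside.

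The libraries were grouped by their labels. Counts of the 24 batch 1 libraries were normalized by TMM, filtered by group with filterByExpr, and fitted together with a robust quasi-likelihood model in edgeR 4.0.16 (limma 3.58.1, R 4.3.3), with group as the only factor and Benjamini-Hochberg adjustment over 13614 genes at 0.05. The group means of log2 CPM behind the correlations use a prior count of 2, and the log2 fold changes are those of the fit. Each SE was derived from the fold change and its F statistic. Where edgeR had raised the p-value above that of the F test, the SE was derived from that p-value. DESeq2 1.42.0, the tool named in the paper's methods, was an alternative. The values rest on batch 1 by the rule that chose the ligands, and batch 2, with libraries in 3 groups only, entered as an alternative. The script was tested on simulated counts. Each of the 24 replicate pairs differed beyond sampling noise (chi-square per degree of freedom from 2.107 to 37.38, over genes whose paired counts reached 20). In TRAP1 KO M2 DMEM, replicate 2, the library with the low Pdgfb, stood apart at 10.84 and 13.08, against 4.259 between replicates 1 and 3. Replicate 1 stood apart in the 4 Mφ groups and WT M2 CM, at 16.04 to 37.38 against 2.107 to 3.417 between replicates 2 and 3. Deviations from the group means of same-numbered libraries correlated in every pair only among these 5 groups (r from 0.131 to 0.521). With 3 libraries per group and replicate 1 apart, replicates 2 and 3 deviate alike from the group mean. The replicate 1 libraries of these 5 groups thus deviated alike. For replicates 2 and 3, these correlations cannot show whether the numbers pair the libraries. No label says what the numbers share.

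The ligands and the gene lists were chosen with earlier results of these data known. Named were the 10 ligands and Trap1, up to 5 genes of each list and comparison with the smallest adjusted p among those that passed, genes of a list named for standing at the floor, and the 3 genes most like each ligand. Xist, Rnase4, Epas1 and Pgk1 were picked with their values known. The alternatives tried were DESeq2, scaling by median-of-ratios size factors, omission of the filter, 27 libraries with and without batch, the compared groups alone, a replicate block, each library left out and, added after seeing the data, 25 libraries. Promoter windows come from RefSeq on GRCm38.p6, and windows whose bases before the start overlapped an annotated exon were not printed.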

Additional observations from a re-analysis of the deposited data

Results flagged for a closer look

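Groups of 4 libraries exist only where a batch 2 library is added to 3 of batch 1. In 9 of 30 sets of 4 values (1 ligand in 1 such group), 1 value stood far from the other 3. At about 1 in 20, chance would give 1.5. Most of the 9 lay in the libraries labelled M2 DMEM KO and M2 CM KO replicate 4, so the sets are not independent. Values here are CPM with the scaling of all 27 libraries. The library labelled M2 DMEM KO replicate 4 had 629 CPM of Vegfa (the others 56.5 to 62.1), 2.20 CPM of Hbegf (33.3 to 38.5) and 387 CPM of Igf1 (2579 to 2821). In the library with the label M2 CM KO replicate 4 there were 30.4 CPM of Vegfa (215 to 217), 60.01 CPM of Pdgfb (14.5 to 17.2), 24.5 CPM of Hbegf (5.73 to 7.14) and 3015 CPM of Igf1 (1002 to 1065). Mφ DMEM WT replicate 4 had 60.3 CPM of Vegfb (33.3 to 35.5), and Mφ DMEM WT replicate 3 had 6.31 CPM of Pdgfc (4.12 to 4.31).

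The response to MPNST-CM differed between TRAP1 KO and WT by the interaction test (log2 difference of the responses, KO minus WT, edgeR on the 24 batch 1 libraries). In Mφ the difference was 2.42 for Vegfa, -1.43 for Vegfb, -1.05 for Pdgfa, -2.14 for Pdgfc, -3.47 for Hbegf and -1.25 for Igf1. In M2 cells it was 0.65 for Vegfa, -1.36 for Vegfb, -1.81 for Pdgfa, -1.64 for Pdgfc, -1.03 for Ang, -1.82 for Hbegf, -0.82 for Igf1 and -0.98 for Tgfb1.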

How the results depend on the processing

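Of 140 ligand comparisons, 102 passed the test. All 140 kept their direction and call with median-of-ratios size factors, 136 with DESeq2, 138 with 25 libraries (an alternative chosen after seeing the data, which adds only Mφ DMEM WT replicate 4), 130 with the compared groups alone and 129 without a filter, and none of these turned a direction. Of the 102, 89 stayed called with any library left out. The fewest reads in a batch 1 library were 5 for Hbegf, 6 for Osm and 12 for Pdgfc.

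With all 27 libraries the counts of called ligands dropped (2 of the 3 added libraries are closer to other groups than to their labelled ones), and the values with batch as a covariate follow in each pair. MPNST-CM against control medium gave 0 and 1 in WT Mφ (6 in the report), 3 and 3 in WT M2 (9) and 1 and 2 in TRAP1 KO M2 (8). TRAP1 KO against WT gave 2 and 2 in Mφ DMEM (6), 2 and 3 in Mφ CM (6), 3 and 2 in M2 DMEM (7) and 2 and 2 in M2 CM (7). M2 against Mφ gave 4 and 4 in WT DMEM (8), 5 and 4 in TRAP1 KO DMEM (8) and 4 and 5 in WT CM (9), and the interaction 2 and 2 in Mφ (6) and 1 and 1 in M2 (8). Directions turned for Vegfa in TRAP1 KO M2 (-0.25), Pdgfc there (0.010 and 0.044) and the M2 interactions of Vegfa (-1.50 and -0.69) and Igf1 (0.052 and 0.0026). Counts over all genes fell alike: 2889 against 958 and 1267 in WT Mφ, 4476 against 2647 and 2826 in TRAP1 KO Mφ, 3330 against 1014 and 1210 in WT M2 and 5016 against 826 and 988 in TRAP1 KO M2 (medium), 2261 against 854 and 843, 5207 against 3097 and 3297, 2238 against 1137 and 1146 and 4627 against 1681 and 1839 (genotype, in the order above), 3883 against 2216 and 2045, 3392 against 1204 and 1376 and 1522 against 475 and 535 (M2 against Mφ in TRAP1 KO DMEM, WT CM and TRAP1 KO CM), and 2683 against 653 and 777 and 2751 against 180 and 269 (interactions). The compared groups alone gave 1898 in WT Mφ and 1941 for M2 against Mφ in WT CM.

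Leaving out 1 library, called ligands numbered 6 to 6, 10 to 10, 8 to 9 and 7 to 7 for the medium (WT Mφ, TRAP1 KO Mφ, WT M2, TRAP1 KO M2), 4 to 6, 5 to 7, 4 to 7 and 7 to 8 for the genotype, 7 to 8, 7 to 9, 8 to 9 and 3 to 4 for M2 against Mφ, and 6 to 7 and 8 to 8 for the interactions. The libraries behind lost and gained calls are named in the report.

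Over all groups, deviations of same-numbered libraries had a mean correlation of 0.107 over 77 pairs, 34 of them over 0.1, against -0.0451 over 175 pairs of other numbers. Every such pair was correlated only among the 4 Mφ groups and WT M2 CM, where replicate 1 stood apart. Whether the numbers pair the libraries there cannot be told from these correlations. With the replicate block over all 24 libraries, 135 of 140 calls were the same. Pdgfb in TRAP1 KO against WT M2 DMEM (edgeR adjusted p = 0.0706) and Ang in M2 against Mφ in WT DMEM (0.0757) no longer passed, and Tgfb1 in WT Mφ in MPNST-CM (0.0357), Tgfb1 in TRAP1 KO against WT M2 CM (0.0456) and Igf1 in TRAP1 KO against WT Mφ DMEM (0.0233) did.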
